A study of Homo sapiens with 2 samples.

Results

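Fatty acid, triglyceride and lipid droplet genes were followed in Huh7 hepatocellular carcinoma cells in which PPIL1, a spliceosomal cyclophilin, was knocked down. The set held 36 genes of the 19927 in the deposited count table. It was drawn up by pathway step, from acetyl-CoA supply through fatty acid synthesis, elongation, desaturation and activation to glycerolipid assembly, droplets and lipolysis, and all 36 were found by symbol. Expression was measured by sequencing of polyadenylated RNA in 2 libraries. The shControl library came from cells with a control hairpin, given the genotype WT in the labels, and the shPPIL1 library from cells with the hairpin shPPIL1#1, given the genotype PPIL1 knockdown. Both came from the Huh7 line grown in serum-supplemented medium. How the hairpins were delivered and how long after delivery the cells were harvested were not given in the sources used here.

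With 1 library per group there was no replicate check and no test between conditions. A difference between the libraries therefore covers the hairpin, the culture and the library preparation, which cannot be told apart. In bulk RNA, fewer cells that express a gene and less of its RNA per cell cannot be told apart either. "Higher" and "lower" refer to the shPPIL1 library against the shControl library. Ratios are of read counts scaled to the library size, and the range in parentheses after a ratio is its 95% counting interval (Clopper-Pearson), which covers counting error and not the variation between cultures. A call of higher or lower needed a difference of 1.2-fold or more and an interval that excluded 1. Levels are in FPKM, reads per kilobase of gene relative to the counted reads of the library, so that genes of different length can be compared.

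Counted reads came to 41015345 for shControl and 41165401 for shPPIL1. PPIL1, the targeted gene, stood at 24.2 FPKM in shControl and 1.67 FPKM in shPPIL1, which is the direction of the labels, and its scaled reads came to 6.79% of the control. The 8 hepatocyte and hepatoma markers were all present in both libraries, with AFP at 4564 and 4612 FPKM. A ratio here is scaled shPPIL1 reads over shControl reads with its 95% counting interval, and a gene is called where the ratio is at least 1.2-fold from 1 and the interval leaves out 1. The intervals of 6 of the 8 markers lay above 1, with ratios from 0.997 for AFP to 1.18 for FGB, and 0 were called. Of 7 adipocyte markers, ADIPOQ, LEP, CIDEA and FABP4 had 0 reads in both libraries, and PLIN1, PLIN4 and LIPE lay below 0.4 FPKM. The summed level of the adipocyte markers was 0.680 FPKM in shControl and 0.743 FPKM in shPPIL1. Of 7 stellate cell and fibroblast markers, COL3A1 was called higher (16 and 48 reads) and COL1A2 had 0 reads in both. Their summed level was 16.03 and 16.3 FPKM, most of it LUM (13.8 and 13.7 FPKM, not called). For 5 leukocyte and macrophage markers it was 244 and 201 FPKM, nearly all of it LYZ (223 and 181 FPKM, called lower), and for 4 endothelial markers it was 1.58 and 1.34 FPKM. The part of other cell types in the lipid gene ratios was not tested.

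Hepatocytes make fatty acids in the cytosol from citrate-derived acetyl-CoA. They esterify them to glycerol, and store the triglyceride in lipid droplets or load it onto apolipoprotein B for secretion. Transcription of much of the synthetic branch is driven by SREBP-1, which is released from the endoplasmic reticulum by proteolysis and acts on promoters together with the CCAAT-binding factor NF-Y. Liver X receptors and the glucose-sensing factor ChREBP act on many of the same genes.

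Most genes of the steps up to acyl-CoA were lower by small factors, with ACACB, ELOVL1 and ELOVL2 as higher exceptions, and triglyceride assembly and droplet genes were mixed. Of the 15 genes up to acyl-CoA, the interval lay below 1 for 10 and above 1 for 3, and of the 19 genes of later steps it lay below 1 for 6 and above 1 for 5. After the filter of 1 CPM in at least 1 library, 35 of the 36 genes were kept. Of these 35, 23 had a ratio below 1 and 12 a ratio above 1. The interval lay below 1 for 17 genes (48.6%) and above 1 for 8 genes (22.9%), and it included 1 for 10 genes. Over all 12540 kept genes the corresponding shares were 26.4% below and 24.6% above. The lipid genes were chosen with earlier results of these data known, so these shares are a description beside the background. The median log2 ratio was -0.08 for the lipid genes and -0.00 for all kept genes.

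The shift was one of many small differences and not of large ones. At 1.2-fold, 3 lipid genes were called lower (8.57%), namely FADS2, LPIN1 and CIDEC, and 3 were called higher (8.57%), namely ACACB, DGAT2 and FITM2. Over all kept genes 9.52% were called lower and 8.32% higher, so the share of large differences was near the background. No member reached 1.5-fold in either direction, where 2.22% of all kept genes were lower and 2.02% higher (at 2-fold 0.518% and 0.526%). Lipid genes were well covered, and a deeper count excludes 1 more readily. Among the 32 lipid genes with at least 1000 reads over both libraries, 50% had an interval below 1 and 25% above 1. Of all 9076 genes with at least 1000 reads, 30.2% and 26.6% did. Depth above this floor was not matched between the lipid genes and all genes. With this floor 2 lipid genes were called lower and 3 higher, and 7.38% and 5.01% of all such genes were.

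**Figure D1:**
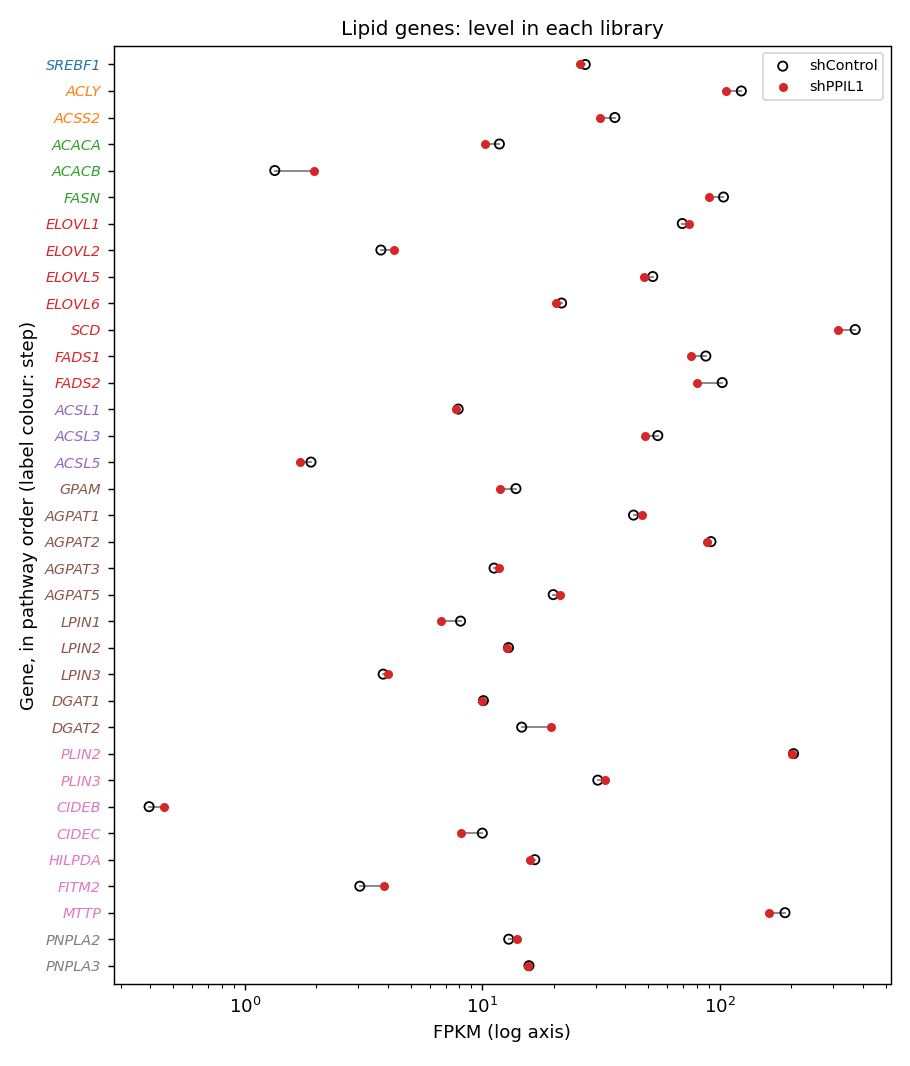
Level of each kept lipid gene in FPKM (x, log axis) in the shControl library (open circles) and the shPPIL1 library (red dots), 1 library each, in pathway order (y, label colour by step). SCD stood highest in both libraries, at 371 and 315 FPKM, and the levels ranged over the genes far more than between the libraries; THRSP, at 0 reads in both, is not drawn.

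The lipid genes took 0.721% of the counted reads in shControl and 0.642% in shPPIL1. Summed over the set, the scaled reads had a ratio of 0.878 (0.873 to 0.883). SCD alone supplied 79877 of the 295731 reads of the set in shControl. Without SCD the summed ratio was 0.893 (0.888 to 0.899), so the lower sum did not rest on that gene alone. SCD, PLIN2, MTTP, ACLY and FASN were the top genes in FPKM, in that order, in both libraries. Below them 20 of the 36 genes changed rank, by at most 2 places.

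Among the regulators, SREBF1, which encodes SREBP-1, had 5094 reads in shControl and 4882 in shPPIL1. This was 27.1 and 25.9 FPKM, a ratio of 0.942 (0.905 to 0.979). The difference in SREBF1 was smaller than that of most enzymes of fatty acid synthesis described next. THRSP, a small lipogenic cofactor known as Spot 14, had 0 reads in both libraries, which allows at most 0.0737 CPM in shControl and 0.0724 CPM in shPPIL1 (3 reads).

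Both genes of acetyl-CoA supply were lower by nearly the same factor. ACLY, the ATP citrate lyase that splits exported citrate into acetyl-CoA, had 21905 and 18951 reads in shControl and shPPIL1, or 123 and 106 FPKM, a ratio of 0.850 (0.834 to 0.867). ACSS2, the cytosolic synthetase that makes acetyl-CoA from acetate, had 4310 and 3734 reads, or 36.1 and 31.2 FPKM, a ratio of 0.851 (0.814 to 0.890). The share of ACSS2 in the reads of these 2 genes was accordingly alike, at 16.4% (exact interval 15.99 to 16.9%) and 16.5% (15.98 to 16.9%).

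Fatty acid synthesis showed the same factor for 2 genes and the opposite direction for the third. ACACA, the cytosolic acetyl-CoA carboxylase that makes malonyl-CoA for chain building, had 4669 reads in shControl and 4057 in shPPIL1, a ratio of 0.854 (0.818 to 0.891). FASN, the multi-enzyme fatty acid synthase that makes palmitate, had 35955 and 31368 reads, or 104 and 90.0 FPKM, a ratio of 0.857 (0.844 to 0.870). ACACB, the carboxylase isoform anchored at the mitochondrial outer membrane, whose malonyl-CoA restrains the fatty acid importer CPT1, had 449 reads in shControl and 656 in shPPIL1. Its level was 1.34 and 1.95 FPKM, a ratio of 1.44 (1.27 to 1.62), the largest of the lipid genes in either direction.

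ACACA and ACACB are paralogues on different chromosomes, ACACA on chromosome 17 from 37084992 to 37406836 and ACACB on chromosome 12 from 109111189 to 109268226 (GRCh38.p14). No 100-base window of either reference transcript, nor of those of the other lipid genes, matched a transcript of a gene elsewhere. ACACB took 8.77% of their joint reads in shControl (exact interval 8.01 to 9.58%) and 13.9% in shPPIL1 (12.9 to 14.9%), and these intervals did not overlap. ACACA stayed the more abundant isoform per length, by 8.82-fold in shControl and 5.25-fold in shPPIL1.

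Desaturases were lower, and the elongases divided by gene. SCD, the stearoyl-CoA desaturase that makes oleate and palmitoleate, had 79877 reads in shControl and 68000 in shPPIL1, a ratio of 0.836 (0.828 to 0.845), just short of the 1.2-fold limit. FADS1, the delta-5 desaturase of polyunsaturated fatty acids, had 15377 and 13420 reads, or 87.3 and 75.9 FPKM, a ratio of 0.857 (0.838 to 0.878). FADS2, the delta-6 desaturase, had 15504 and 12143 reads, or 102 and 79.9 FPKM, a ratio of 0.769 (0.751 to 0.788), the lowest ratio of the 35 genes. The interval of FADS2 lay below those of FADS1 and SCD.

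FADS1 and FADS2 lie head to head on chromosome 11, FADS1 on the minus strand from 61799627 to 61817003 and FADS2 on the plus strand from 61816203 to 61867354. Their annotated exons overlap by 142 bases, which is 1.80% of the exon length of FADS1 and 2.85% of that of FADS2. FADS2 took 50.2% of their joint reads in shControl (49.6 to 50.8%) and 47.5% in shPPIL1 (46.9 to 48.1%).

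The elongases add a pair of carbons to an acyl-CoA, each with its own preferred chain. ELOVL6, which extends palmitate to stearate, had 5771 and 5496 reads in shControl and shPPIL1, a ratio of 0.936 (0.902 to 0.971). ELOVL5, which extends polyunsaturated chains, had 5174 and 4770 reads, a ratio of 0.906 (0.871 to 0.942). ELOVL1, the elongase of very long saturated chains, had 4056 and 4329 reads, a ratio of 1.05 (1.004 to 1.09). ELOVL2, the elongase of long polyunsaturated chains, stood at 1825 and 2089 reads, or 3.74 and 4.27 FPKM, a ratio of 1.12 (1.06 to 1.198). Thus ELOVL5 and ELOVL6 were on the lower side and ELOVL1 and ELOVL2 on the higher side, and none of these 4 reached 1.2-fold. Within the pair of polyunsaturated elongases ELOVL2 took 26.1% of the reads in shControl (25.05 to 27.1%) and 30.5% in shPPIL1 (29.4 to 31.6%).

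Activation to acyl-CoA was represented by ACSL1, ACSL3 and ACSL5, long-chain acyl-CoA synthetases that differ in their place in the cell. ACSL3, the form found on the endoplasmic reticulum and on nascent droplets, was the most abundant of them, with 12349 and 10909 reads, or 54.8 and 48.2 FPKM, and a ratio of 0.868 (0.846 to 0.891). ACSL1 had 1217 and 1196 reads, a ratio of 0.966 (0.891 to 1.05). ACSL5 had 258 and 232 reads, a ratio of 0.883 (0.737 to 1.06). At their depth the differences of ACSL1 and ACSL5 were not detectable.

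**Figure D2:**
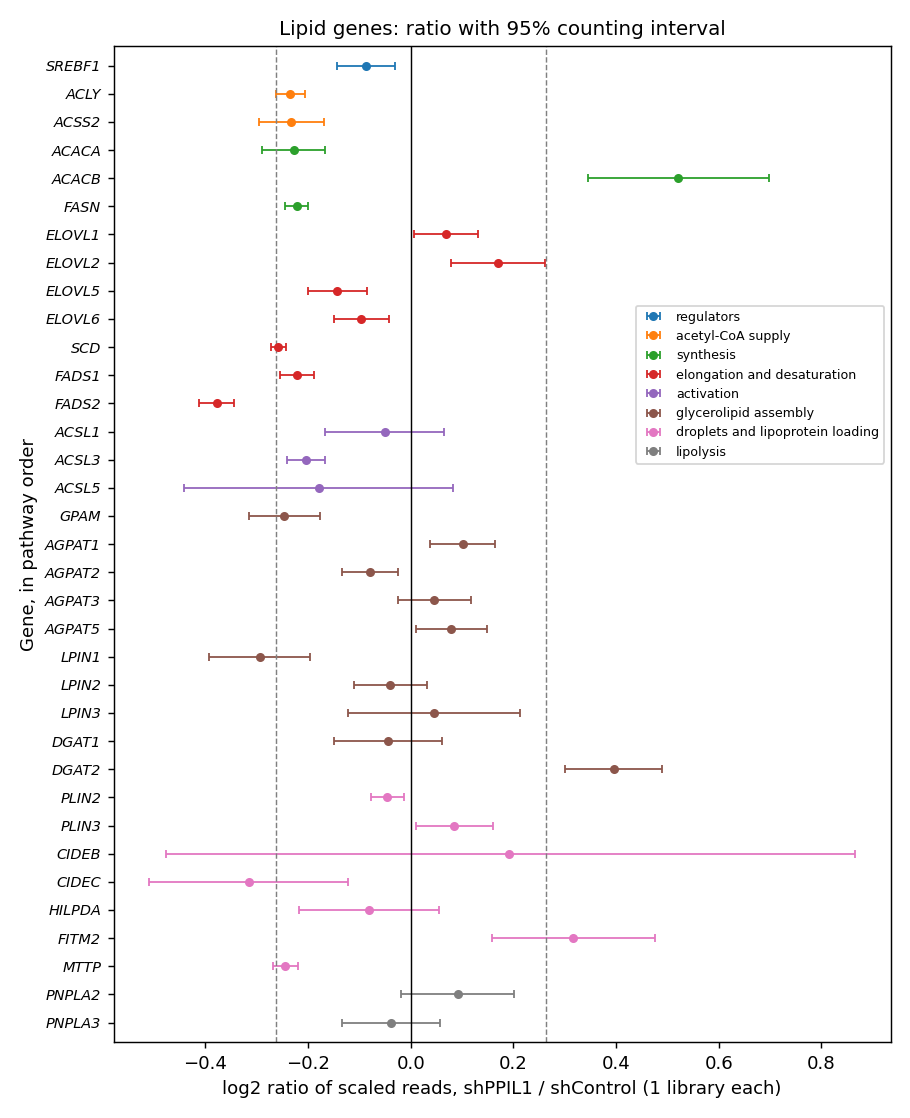
Log2 ratio of scaled reads, shPPIL1 over shControl (x), for the 35 kept lipid genes in pathway order (y, colour by step). Bars are 95% counting intervals, the solid line marks equal expression and the dashed lines 1.2-fold. The genes from ACLY to FADS2 lay between -0.10 and -0.38 apart from ACACB, ELOVL1 and ELOVL2, and the genes from AGPAT1 down fell on both sides.

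A narrow band of ratios held 9 of the 35 genes. SCD, GPAM, MTTP, ACLY, ACSS2, ACACA, FASN, FADS1 and ACSL3 had ratios from 0.836 to 0.868, a range (0.83 to 0.87) that held 5.37% of all kept genes. The band was drawn after the values were seen, so it is a description. It joins enzymes of acetyl-CoA supply, synthesis, desaturation and activation with GPAM and MTTP, which act later.

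Promoters of the lipid genes, several of which had similar ratios, were read for the CCAAT box, to which NF-Y binds, and for a core of the sterol regulatory element, to which SREBP binds. RefSeq promoter sequences (GRCh38.p14, 250 bases before to 50 bases after a gene start) were matched for 29 of the 36 genes, with more than 1 start for some. FASN, AGPAT5, LPIN3, DGAT1, DGAT2, PNPLA3 and HILPDA were not matched. The windows below are a selection from genes of the narrow band, with ACACB for contrast. Boxes at ACSS2, ACACA and MTTP of the band, and at ELOVL1, AGPAT1 and PLIN3, whose intervals lay above 1, are not shown. The ACACB window stands at the second of its 2 gene starts. Each window shown runs 5′ to 3′ along the gene's strand, with the CCAAT box, or ATTGG where it lies on the opposite strand, in capitals.
ACLY, chr17:41919028-41919057, minus strand: gaacgcgtgtggCCAATcgcggggccgttc
SCD, chr10:100346992-100347021, plus strand: gattgcgccgagCCAATggcaacggcagga
SCD, chr10:100347035-100347064, plus strand: aattcccttcggCCAATgacgagccggagt
ACSL3, chr2:222860949-222860978, plus strand: accgctcgcgggCCAATgggtggcagcctc
GPAM, chr10:112183731-112183760, minus strand: actgcagctggcATTGGccgggactggaag
ACACB, chr12:109154433-109154462, plus strand: tatcaattgctgCCAATatgtaggggtgtc

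CCAAT was present on either strand in at least 1 promoter of 17 of the 29 matched lipid genes, against 42.1% of the 15762 genes of the count table with a promoter sequence and 34.6% of all 35116 promoters. The 16 kept lipid genes with the box had a median log2 ratio of -0.17, and the 12 without it -0.08. Both groups held genes of both directions: 9 of the 16 had an interval below 1 and 4 above 1, and 7 of the 12 had one below and 2 above. The higher gene ACACB carried the box, and FADS1, LPIN1 and CIDEC, all lower, did not. The core TCACNCCAC was found on either strand at ACSL1, CIDEC and PNPLA2, against 1.504% of genes with a promoter sequence. The E-box CACGTG was found at ELOVL5, LPIN2 and PLIN2, against 10.9%. A match describes the letters in these windows and is not a measured binding site.

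Glycerolipid assembly was mixed from its first step to its last. GPAM, the mitochondrial acyltransferase that starts the pathway, had 3691 and 3168 reads in shControl and shPPIL1, or 13.9 and 11.8 FPKM, a ratio of 0.843 (0.804 to 0.885). Of the enzymes that add the second acyl chain, AGPAT2 was the most abundant, at 91.8 and 88.1 FPKM, with a ratio of 0.947 (0.911 to 0.983). AGPAT1 had 3874 and 4230 reads, a ratio of 1.07 (1.03 to 1.12). AGPAT5 had a ratio of 1.06 (1.01 to 1.11) and AGPAT3 one of 1.03 (0.982 to 1.09). AGPAT2 therefore lay below 1, AGPAT1 and AGPAT5 above, and AGPAT3 was not separated from equal expression. For AGPAT1, 30.5% of the annotated exon length overlaps the gene PPT2-EGFL8 on the opposite strand, and the strand setting of the counting is not given.

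The lipins remove the phosphate from phosphatidic acid to give diacylglycerol. LPIN1 had 1840 reads in shControl and 1527 in shPPIL1, or 8.10 and 6.70 FPKM, a ratio of 0.815 (0.761 to 0.873). LPIN2 had 3234 and 3202 reads, a ratio of 0.973 (0.926 to 1.02), and LPIN3 had 576 and 605 reads, a ratio of 1.03 (0.919 to 1.16). LPIN1 was thus the lower lipin, and its share of the joint reads with LPIN2 was 36.3% (34.9 to 37.6%) in shControl and 32.3% (31.0 to 33.6%) in shPPIL1.

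The last step of triglyceride synthesis is carried out by DGAT1 and DGAT2, enzymes of unrelated families. DGAT2, which mainly esterifies newly made fatty acids in liver, had 1606 reads in shControl and 2150 in shPPIL1. Its level was 14.6 and 19.5 FPKM, a ratio of 1.32 (1.23 to 1.404). DGAT1 had 1461 and 1442 reads, or 10.1 and 9.94 FPKM, a ratio of 0.970 (0.901 to 1.04). DGAT2 was higher while DGAT1 was not separated from equal expression, and the share of DGAT2 in their joint reads was 52.4% (50.6 to 54.1%) in shControl and 59.9% (58.2 to 61.5%) in shPPIL1. A transcript on the opposite strand, AP003031.1, overlaps 17.2% of the annotated exon length of DGAT2.

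**Figure D3:**
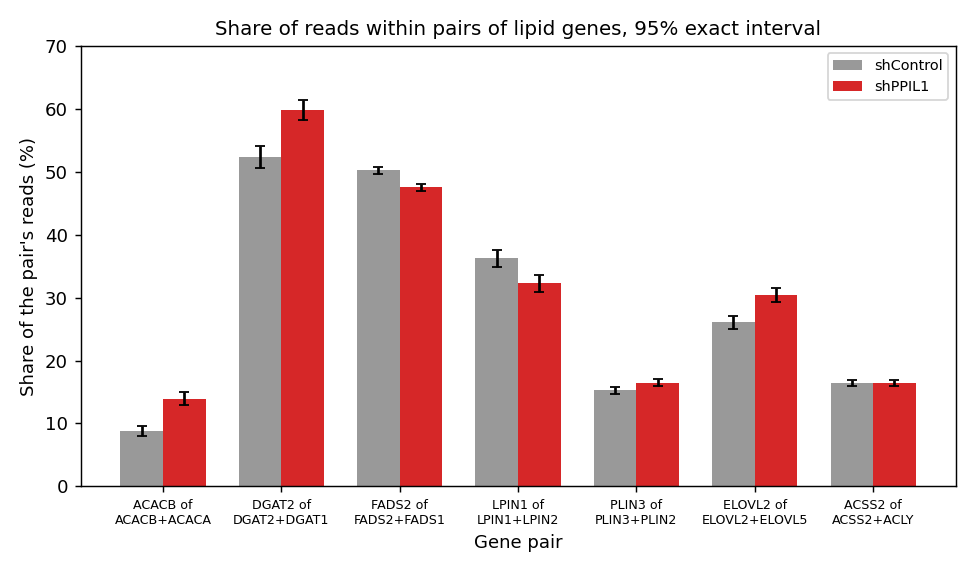
Share of the first gene in the joint reads of a gene pair (y, percent, from 0) in the shControl library (grey) and the shPPIL1 library (red), with exact 95% intervals as error bars. ACACB and DGAT2 took larger shares in shPPIL1 (13.9 against 8.77% and 59.9 against 52.4%), FADS2 and LPIN1 smaller ones, and the share of ACSS2 was 16.4 and 16.5%.

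The major droplet coat gene differed little. PLIN2, the coat protein that marks droplets in hepatocytes, had 15477 and 15263 reads, or 204 and 201 FPKM, a ratio of 0.969 (0.947 to 0.991), and with libraries scaled by their total counts this interval included 1. PLIN3, an exchangeable coat protein, had 2788 and 3010 reads, a ratio of 1.06 (1.01 to 1.12). PLIN3 took 15.3% of the joint reads (14.7 to 15.8%) in shControl and 16.5% (15.9 to 17.0%) in shPPIL1, so PLIN2 remained the main coat transcript. In PLIN3, 21.5% of the annotated exon length overlaps the antisense gene AC027319.1.

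Genes of droplet growth and budding moved apart. CIDEC, which promotes droplet fusion, had 489 reads in shControl and 400 in shPPIL1, or 10.0 and 8.15 FPKM, a ratio of 0.804 (0.702 to 0.919). FITM2, a membrane protein of the endoplasmic reticulum needed for droplet budding, had 579 and 734 reads, or 3.05 and 3.85 FPKM, a ratio of 1.25 (1.12 to 1.39). HILPDA, a hypoxia-induced inhibitor of the triglyceride lipase ATGL, had 892 and 858 reads, a ratio of 0.945 (0.859 to 1.04). CIDEC was lower and FITM2 higher, and HILPDA was not separated from equal expression.

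CIDEB, which enlarges droplets and lipoproteins in hepatocytes, had 37 and 43 reads, a ratio of 1.14 (0.719 to 1.82), and passed the filter through shPPIL1. A difference was not detectable at this depth, and 68.1% of its annotated exon length overlaps NOP9 on the opposite strand.

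MTTP, the transfer protein that loads triglyceride onto apolipoprotein B, was among the most abundant of the set. It had 30448 reads in shControl and 26168 in shPPIL1, or 188 and 161 FPKM, a ratio of 0.844 (0.831 to 0.858). Its cargo partner APOB, which is no member of the set, had 47069 and 48787 reads, a ratio of 1.02 (1.01 to 1.03). MTTP was thus lower while the gene of the lipoprotein scaffold was slightly higher.

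The difference of neither lipolysis gene was separated from equal expression by its interval. PNPLA2, which encodes the triglyceride lipase ATGL, had 1280 and 1388 reads, or 12.9 and 13.96 FPKM, a ratio of 1.07 (0.987 to 1.15), and with total-count scaling this interval lay just above 1. PNPLA3, a droplet protein of the same family known for a variant linked to fatty liver, had 1775 and 1759 reads, or 15.7 and 15.5 FPKM, a ratio of 0.974 (0.911 to 1.04).

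As sums of scaled reads per step, the steps up to acyl-CoA had the lowest ratios. The summed ratio was 0.850 (0.835 to 0.865) for acetyl-CoA supply, 0.863 (0.851 to 0.875) for synthesis, 0.849 (0.842 to 0.856) for elongation and desaturation, and 0.877 (0.856 to 0.898) for activation. It was 0.991 (0.975 to 1.01) for glycerolipid assembly, 0.900 (0.889 to 0.912) for droplets with MTTP, and 1.01 (0.963 to 1.06) for lipolysis. The intervals of activation and of droplets overlapped. Sums follow the gene with the most reads in a step, which is SCD in elongation and desaturation, FASN in synthesis and MTTP in droplets with MTTP. In shControl, MTTP supplied 30448 of the 50710 reads of that last step, and the main droplet coat gene PLIN2 had a ratio of 0.969.

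Other genes of lipid metabolism were read from lists outside the set. The counts called stand beside the shares over all kept genes, 9.52% lower and 8.32% higher. Of 21 kept genes of SREBP processing and lipogenic transcription factors, 3 were called lower (14.3%) and 4 higher (19.0%), with a median of -0.03. PPARG, a nuclear receptor of lipid storage, was 1.201-fold lower (5631 against 6644 reads) and MBTPS1, the site-1 protease that cleaves SREBPs, 1.19-fold lower. MID1IP1, a relative of THRSP that promotes polymerisation of acetyl-CoA carboxylase, was 1.32-fold higher (6190 against 4622 reads), and RXRA, the partner of liver X receptors, 1.23-fold higher. MLXIPL, the gene of ChREBP, had a ratio of 1.22 (1.08 to 1.37) and was called higher, while MLX, at 0.832 (0.785 to 0.883), was called lower. The lower calls of PPARG and MLX passed the 1.2-fold limit narrowly, at 1.201-fold each. Scaling by DESeq2, upper-quartile factors or total counts raises every ratio slightly, and both then fall short of the limit. Of the liver X receptor genes, NR1H2 was called higher, at 1.25 (1.16 to 1.34), and NR1H3 was not called, at 0.926 (0.841 to 1.02). Among the 7 genes of SREBP processing in that list, 0 were called. The intervals of 4 lay below 1 (57.1%) and of 1 above (14.3%), against 26.4% and 24.6% of all kept genes. Of the 4, SREBF2 lay below 1 only just (upper bound 0.999), and its interval includes 1 under the other scalings. MBTPS1 had a ratio of 0.837 (0.809 to 0.867) and SPRING1, a regulator of SREBP processing, 0.863 (0.818 to 0.911). INSIG1 had 0.954 (0.932 to 0.975), MBTPS2 0.956 (0.893 to 1.02), SREBF2 0.978 (0.957 to 0.999), SCAP 0.981 (0.935 to 1.03) and INSIG2 1.06 (1.01 to 1.11).

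Of 20 kept genes for acetyl-CoA, NADPH and chain building, 0 were called lower and 2 higher (10%), against 9.52% and 8.32% of all kept genes. HSD17B12, the ketoacyl reductase of the elongation cycle, had a ratio of 0.843 (0.815 to 0.872) and ME1, the NADPH-making malic enzyme, 0.851 (0.827 to 0.875). Both ratios lay inside the band from 0.83 to 0.87 that held ACLY and FASN. The called higher genes were ELOVL4, an elongase of very long chains, with 91 and 123 reads and a ratio of 1.33 (1.005 to 1.76), and FAR1, a fatty acyl-CoA reductase, with 157 and 207 reads and a ratio of 1.30 (1.05 to 1.604). ELOVL7, another elongase, had a ratio of 1.16 (1.09 to 1.23) and was not called. Of 9 kept genes of fatty acid uptake, binding and activation, 1 was called lower (11.1%) and 0 higher. FABP5, a fatty acid binding protein, had a ratio of 0.825 (0.793 to 0.860) and ACSL4, the synthetase that prefers arachidonate, 0.845 (0.823 to 0.868).

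Of 18 kept further genes of glycerolipid assembly, 1 was called lower (5.56%) and 1 higher (5.56%), with a median of 0.05. CNEP1R1, the regulatory subunit of the phosphatase that activates lipins, was 1.48-fold higher (738 against 491 reads), and LCLAT1, an acyltransferase, 1.35-fold lower. Of 24 kept further genes of droplets, lipolysis and lipoprotein loading, 6 were called lower (25%) and 1 higher (4.17%), with a median of -0.01. Over all kept genes 9.52% were called lower and 8.32% higher. MGLL, the monoacylglycerol lipase, was 1.30-fold lower (3777 against 4807 reads) and RAB18, a droplet GTPase, 1.24-fold lower. CES1, a liver carboxylesterase, was 1.203-fold higher.

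By median log2 ratio, though not by summed reads, the lipid genes lay between a neighbouring list that was lower and another that was not. Of 23 cholesterol synthesis and uptake genes, which answer mainly to SREBP-2, 21 had an interval below 1 (91.3%) and 0 above 1, with a median of -0.18. Of 25 kept genes of fatty acid oxidation and ketogenesis, 3 had an interval below 1 (12%) and 10 above 1 (40%), with a median of 0.06. The shares over all kept genes were 26.4% below and 24.6% above. Among genes with at least 1000 reads over both libraries they were 30.2% and 26.6%. The summed ratio of the cholesterol genes was 0.878 and that of the lipid genes 0.878, while that of the oxidation genes was 1.03. With 1 library per group these differences between lists were not tested.

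**Figure D4:**
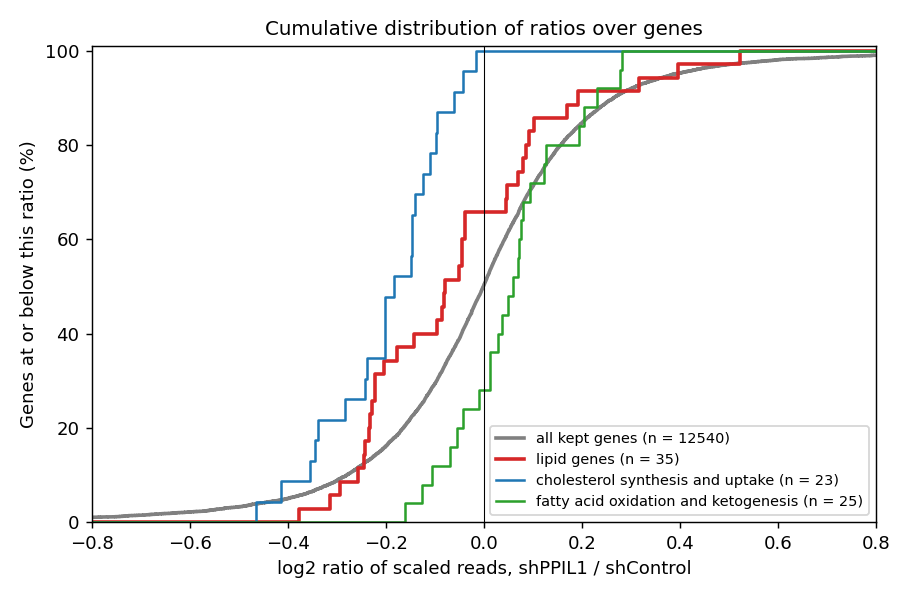
Cumulative share of genes (y, percent) at or below a log2 ratio of shPPIL1 over shControl (x) for all 12540 kept genes (grey), the 35 lipid genes (red), 23 cholesterol genes (blue) and 25 fatty acid oxidation genes (green). The lipid curve starts at FADS2 (-0.38), with 5.65% of all kept genes below it. From about the ratio of GPAM (-0.25) through the middle of the range it lies left of all genes, and at the upper end close to them. The axis ends at 0.8 in both directions.

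The 6-base sequence GATCAT, a motif picked on these same libraries, was present in the coding sequence or 3' UTR of the reference transcript of 19 of the 35 kept lipid genes (54.3%), against 46.5% of 12113 kept genes. All 3 called higher genes (ACACB, DGAT2 and FITM2) held it, and of the called lower genes FADS2 did. The 19 genes with the motif had a median log2 ratio of -0.14 and the 16 without it -0.06, and its part in the differences was not tested.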

How the data were processed

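Per the labels' protocols, polyadenylated RNA was fragmented, converted to cDNA and amplified by PCR, and the genome build is hg38 per the submitters' processing notes. Aligner, counter, annotation, strand setting and handling of multiply matching reads were not given in the sources used here. Raw counts of each gene, deposited by the authors, were used for both libraries, tied to their columns by the names in the labels, and 7 further per-sample columns were not used. The authors also deposited FPKM values per library. FPKM rests on the total counts, so ratios of FPKM differ slightly from the scaled ratios.

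Library sizes were corrected by TMM in edgeR 4.0.16 under R 4.3.3, with factors of 0.993 for shControl and 1.01 for shPPIL1. Genes with at least 1 CPM in at least 1 library were kept. Intervals are Clopper-Pearson on the reads. PCR copies are not independent molecules and no molecular identifiers were reported, so intervals and floors of 3 reads cover counting error. The design planned no test, because each group holds 1 library. All 36 members are named. Of each other list, the rule takes up to 2 higher and 2 lower genes with the interval bound farthest from 1. APOB, ELOVL4, MLXIPL, MLX, NR1H2, NR1H3, the 7 SREBP processing genes and the markers were named after their values were seen. Members and lists were chosen with earlier results of these data known. Coordinates and promoters are from RefSeq, exons and transcripts from GENCODE release 29. Overlap with other genes was taken over annotated exons, and shared sequence as identical windows of 100 bases. The ratio step was tested on simulated data. Alternatives were other scalings (including DESeq2 1.42.0), filters, units, call rules and member sets.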

Additional observations from a re-analysis of the deposited data

How the results depend on the processing

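The median log2 ratio of the lipid genes was negative under each alternative run. It was -0.08 at 5 CPM or more, without overlapping members or with the scaling of DESeq2, and -0.06 with FPKM. Overlapping members are here the 3 with at least 20% of their annotated exon length in another gene, AGPAT1, PLIN3 and CIDEB. Members with less overlap stayed in, among them the called genes DGAT2 (17.2%) and FADS2 (2.85%). The counts of 3 lower and 3 higher genes at 1.2-fold were the same with total counts, DESeq2 or upper-quartile factors, without a filter and without the overlapping members, and were 2 and 2 on the log2(FPKM + 1) scale. They depend on the fold chosen: 0 lower and 0 higher at 1.5-fold and at 2-fold, and 17 lower and 8 higher with an interval excluding 1 at any fold. Without members that hold GATCAT, chosen after seeing the data, 2 were lower and 0 higher. No ratio of a called member changed direction under another scaling or with FPKM. The ratio of SCD moved outside its counting interval with total counts and with FPKM (0.848), and those of ACACB (1.26) and FASN (0.870) did so on the log2(FPKM + 1) scale. With total counts 16 intervals lay below 1 and 9 above, since that of PLIN2 then included 1 and that of PNPLA2 no longer did. The scaling of library sizes moved the median of all kept genes between -0.00 and 0.02. No paired analysis was possible because each group holds 1 library. Depth limits CIDEB, ACSL5 and CIDEC most, the kept members with fewer than 1000 reads over both libraries.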
